A study of Mus musculus with 2 samples.

Results

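The gene Sfmbt2 carries, inside 1 of its introns, a long array of microRNA (miRNA) genes, many of them named Mir466, Mir467, Mir669 or Mir297. Most of the genes share stretches of sequence with other miRNA genes. The reads of the array in embryonic mouse neural tube are described here. Members were all miRNA genes of GENCODE annotation M21 (mm10 assembly) that overlap the span of Sfmbt2 (chr2:10370510-10595253, plus strand) on its strand. The annotation holds 119 such genes, of which 107 have a row in the deposited counts, among 1973 miRNA genes counted in all. By symbol, 20 counted members belong to the Mir466 family, 14 to Mir467, 20 to Mir669 and 5 to Mir297, and the other 48 carry provisional Gm symbols. The 12 members without a row are Mir669a-4 to Mir669a-12, Mir466b-1, Mir466c-1 and Mir466e.

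The samples are neural tube, the precursor of brain and spinal cord, from B6NCrl mouse embryos aged 12.5 days, without any treatment or genetic change named in the labels. The single group has 2 libraries, each from its own pool of male and female embryos, 120 in replicate 1 and 88 in replicate 2. Own-strand reads assigned to miRNA genes numbered 4802411 and 4422853, and levels are given as reads per 1000000 of these gene reads (CPM). Detection of a gene here means 10 or more reads in each library. There is no second group, so levels are compared between genes and between the libraries, and since 2 libraries allow no exact sign test below p = 0.5, ratios between genes are given with their SD. Of the neural tube list, 7 of 9 matched genes were detected (18.8% of all counted genes were), and nearly all of its reads came from the Hox cluster genes Mir10a and Mir10b. Of its other genes, Mir9-3, Mir219a-1 and Mir219a-2 had 283, 395 and 5544 CPM on average. The lowest were Mir124a-1, Mir124a-2, Mir124a-3 and Mir9-2, with 1.85, 9.71, 1.52 and 3.95 CPM on average. Multiply mapped reads are left out of these values, and how many came from these genes was not tested. The low values therefore do not show that the mature miRNAs of these genes were scarce. Marker lists of other cells summed to 20304 and 18258 CPM for endothelium (Mir126a alone), 11750 and 10689 CPM for mesenchyme, and 112 and 102 CPM for erythroid cells, and their part in the reads of the cluster was not tested.

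A miRNA gene is transcribed as part of a longer RNA, from which a hairpin is cut out and trimmed to a short mature strand that guides repression of messenger RNAs. Target choice rests mainly on the seed, bases 2 to 8 of the mature strand, so that copies with 1 seed are read as a family. Sfmbt2 encodes a Polycomb group protein, and in mouse the gene is imprinted, with expression from the paternal copy in extraembryonic tissues. Its intronic miRNA array arose in rodents by repeated duplication and is known above all from placenta and embryonic stem cells. Of single families, miR-467 has been described as a repressor of Thbs1, an inhibitor of blood vessel growth, and miR-669a as a repressor of the muscle factor MyoD.

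The letters of these families show what sets them apart from most miRNAs, runs of alternating U and G or of A and C. Of the 10 counted genes of the 4 families that lie outside Sfmbt2, 8 have a mature sequence in the RefSeq table (GRCm38.p6), and none of the 119 members has an entry there. Each sequence runs 5′ to 3′ with the seed in capitals.
mmu-miR-467h: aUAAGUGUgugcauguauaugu
mmu-miR-467g: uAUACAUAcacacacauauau
mmu-miR-467f: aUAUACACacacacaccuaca
mmu-miR-466i-3p: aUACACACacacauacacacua
mmu-miR-466q: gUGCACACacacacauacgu
mmu-miR-466k: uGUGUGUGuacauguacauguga
mmu-miR-466j: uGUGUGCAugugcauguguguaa
mmu-miR-669n: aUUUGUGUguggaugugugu
The 8 sequences have 8 different seeds, so a shared family symbol does not mean a shared seed here. The same lettering marks the hairpins of the members. Either TGTGTGTG or CACACACA, searched on the transcribed strand only, stood in 76 of the 107 counted members (71.0%) and in 143 of 1787 other counted genes with an M21 hairpin (8.00%). These are 4 copies of TG and of CA in a row, and a hairpin with several matches was counted once. The median GC content of the hairpins was 38.3% in the members and 52.0% in the others.

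All 119 members lie in 1 intron of 62.5 kb (chr2:10461473-10523944), intron 11 of the principal coding transcript of Sfmbt2 and intron 10 of its other long coding transcript. They span 53.0 kb, do not overlap each other, and have a median gap of 206 bases between neighbours. None of them touches an exon of these transcripts.

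Among reads assigned to 1 place, the cluster was a minor part of the miRNA reads of neural tube. Its members had 21930 reads together in replicate 1 and 19513 in the other library. That is a share of 0.457% (95% exact binomial interval 0.451 to 0.463) and 0.441% (0.435 to 0.447) of gene reads. The mean share was 0.449% ± 0.0109 (SD, n = 2), while the members make up 5.42% of the counted genes. The intervals cover counting error alone, because amplified reads were not marked by molecule. In bulk tissue, fewer cells that make a miRNA and less of it per cell cannot be told apart. With multiply mapped reads added to the denominator, the share was 0.270%. This setting adds none of them to the cluster, so it could only lower the share. The share of the cluster with its multiply mapped reads included is not known. Neither library had a read on the strand opposite to a member, against 84152 and 66438 such reads over all genes.

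The reads came from very few members. Of the 107, 9 were detected (8.41%), while 18.8% of all counted genes were. A read in either library was found in 27 members (25.2%), against 37.3% of all genes, and 80 members had none. The 9 detected members held 99.7% ± 0.0647 of the cluster's reads (SD, n = 2), and the 18 others with a read held 53 reads in replicate 1 and 65 in replicate 2. With a minimum of 1 read in either library in place of 10 in both, the count of 9 is thus 27. A gene with 0 reads could have held as much as 0.625 CPM in replicate 1 and 0.678 CPM in replicate 2 (3 counts) of reads assigned to 1 place. Multiply mapped reads belong to no gene in these counts. They numbered 3448592 and 2698981, or 157 and 138 for each cluster read, and how many of them came from the cluster was not tested.

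**Figure D1:**
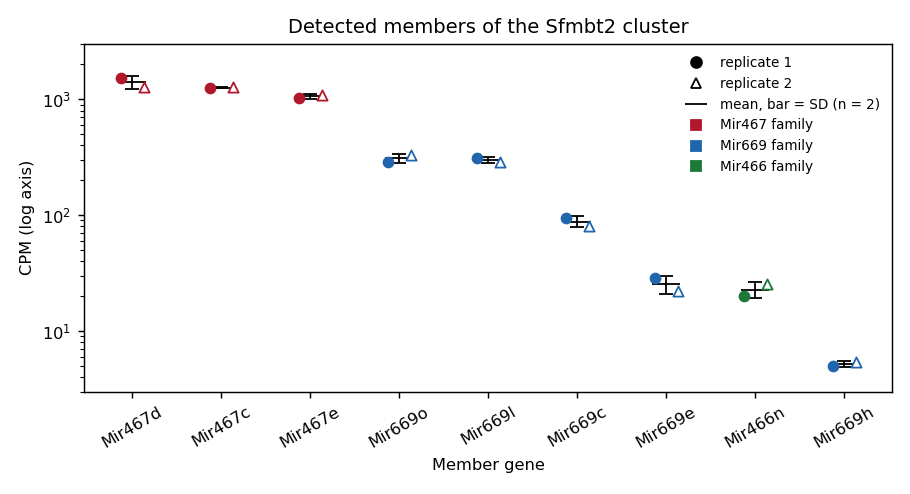
CPM (log axis) of the 9 detected members in replicate 1 (filled circles) and replicate 2 (open triangles), with the mean and SD of the 2 libraries as black bars. The 3 Mir467 genes lie at 1028 CPM or more in both libraries, and the other 6 at 330.3 CPM or less.

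In reads assigned to 1 place, the Mir467 family led the cluster through 3 of its 14 genes. Mir467d (chr2:10507630-10507714) had 7323 reads in replicate 1 and 5693 in replicate 2, or 1525 and 1287 CPM. Mir467c (chr2:10473931-10474027) had 6003 and 5599 reads, or 1250.0 and 1266 CPM. Mir467e (chr2:10505721-10505807) had 4938 and 4833 reads, or 1028 and 1093 CPM. These 3 genes held 83% ± 0.457 of the cluster's reads and stood in places 74, 76 and 87 in the order of mean CPM of all 1973 genes. Mir467d exceeded Mir467c by 1.12 ± 0.144 times, which is within the spread of the libraries, and Mir467c exceeded Mir467e by 1.19 ± 0.0404 times, which is beyond it. The other 11 members of the family had few or no reads. Mir467b had 7 and 9 reads, Mir467a-1 had 4 and 0, and the 9 further Mir467a copies had 0 in both libraries.

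The Mir669 family followed with 5 detected genes of 20 counted, where 18.8% of all counted genes were detected, and 16.3% ± 0.301 of the reads. Mir669o (chr2:10514300-10514395) had 1391 and 1461 reads, or 289.6 and 330.3 CPM. Mir669l (chr2:10468971-10469068) had 1508 and 1269 reads, or 314 and 287 CPM. These 2 genes changed places between the libraries, and their ratio of 1.04 ± 0.162 did not leave 1 by more than its spread. Mir669c (chr2:10509296-10509404) came next with 94.7 and 81.2 CPM, from 455 and 359 reads. Mir669e (chr2:10467495-10467613) had 28.7 and 22.2 CPM, and Mir669h (chr2:10518155-10518279), the last member in the intron, had 5.0 and 5.43 CPM from 24 reads in each library. Mir669l thus outnumbered Mir669e by 11.9 ± 1.43 times within the same family. Of the 15 other counted genes, Mir669f had 6 and 5 reads, Mir669m-1 had 0 and 1, and the rest had none.

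By reads assigned to 1 place, the Mir466 and Mir297 families were close to the floor. In 6 of the 20 counted Mir466 genes, every run of 20 hairpin bases also stood in another annotated miRNA gene. The same held for 10 of 14 Mir467, 4 of 20 Mir669 and 0 of 5 Mir297 genes. Mir466b-1, Mir466c-1 and Mir466e had no row in the counts. The order of the families with multiply mapped reads included was not tested. Mir466n (chr2:10513741-10513834) was the 1 detected Mir466 gene of 20 counted, with 97 and 112 reads, or 20.2 and 25.3 CPM. Its level did not differ from that of Mir669e by more than the spread (ratio of Mir669e to Mir466n 1.15 ± 0.387). The whole Mir466 family held 0.562% ± 0.118 of the cluster's reads. The others with a read were Mir466b-3, Mir466o, Mir466, Mir466h and Mir466l, with 1 to 6 reads in each library. None of the 5 Mir297 genes was detected, and with 18.8% of all counted genes detected so small a number shows nothing particular to them. Mir297a-2 had 8 and 18 reads, Mir297b had 3 and 1, and the family's share was 0.0738% ± 0.0334.

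**Figure D2:**
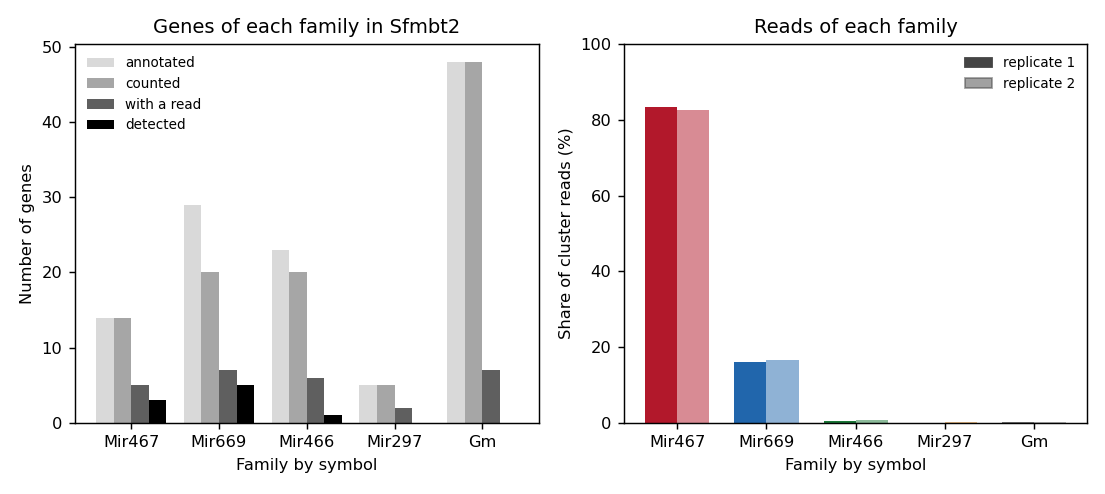
Left, number of genes of each family annotated in the Sfmbt2 intron, counted, with a read in either library, and detected; right, share of the cluster's reads (%) in replicate 1 (dark) and replicate 2 (light). Mir467 has 14 counted genes against 20 of Mir669 and 20 of Mir466 but holds 83% of the reads assigned to 1 place.

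In descending order of mean CPM the detected members were Mir467d, Mir467c, Mir467e, Mir669o, Mir669l, Mir669c, Mir669e, Mir466n and Mir669h. Neighbours in this order that did not differ by more than their spread were Mir467d and Mir467c, Mir669o and Mir669l, and Mir669e and Mir466n. The steps from Mir467e to Mir669o (3.43 ± 0.171 times), from Mir669l to Mir669c (3.42 ± 0.156), from Mir669c to Mir669e (3.48 ± 0.259) and from Mir466n to Mir669h (4.35 ± 0.442) were larger than the spread. From the top to the bottom of the list, Mir467d exceeded Mir669h by 271 ± 48.0 times. Detected hairpins were 85 to 125 bases long, and per 100 hairpin bases the order was the same except that Mir466n stood before Mir669e. Capture can differ between sequences and was not measured, so the ratios hold for reads alone.

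**Figure D3:**
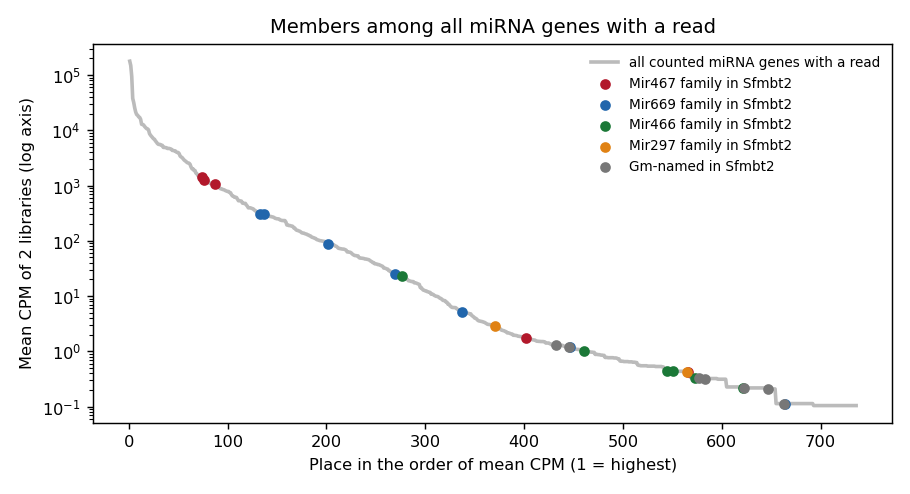
Mean CPM (log axis) of all counted miRNA genes with a read, in descending order (grey line), with the members marked by family. The 3 Mir467 genes lie in places 74 to 87, and most other marked members lie in the lower part of the curve.

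Among detected genes the members were not low. The median of their mean CPM was 300.5, against 115 over all 371 detected genes. Members that had too few reads to be detected are in neither median.

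Along the intron the reads assigned to 1 place stood at both flanks, with a stretch of very few such reads between them. The first 17 members, from Gm22072 (1 read in each library) to Mir467c (chr2:10465287-10474027), held 35.0% of the cluster's reads in replicate 1 and 35.8% in replicate 2. The last 30, from Mir467e to Mir669h (chr2:10505721-10518279), held 65.0% and 64.1%. The 72 members between them, from Mir466b-1 to Gm26398 (chr2:10474219-10504773, 30.6 kb), include 60 counted genes with 15 and 17 reads in all. Only Mir467a-1, Mir467b, Mir466b-3 and Gm26398 had a read there. The end points of these stretches were chosen after the reads were seen.

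**Figure D4:**
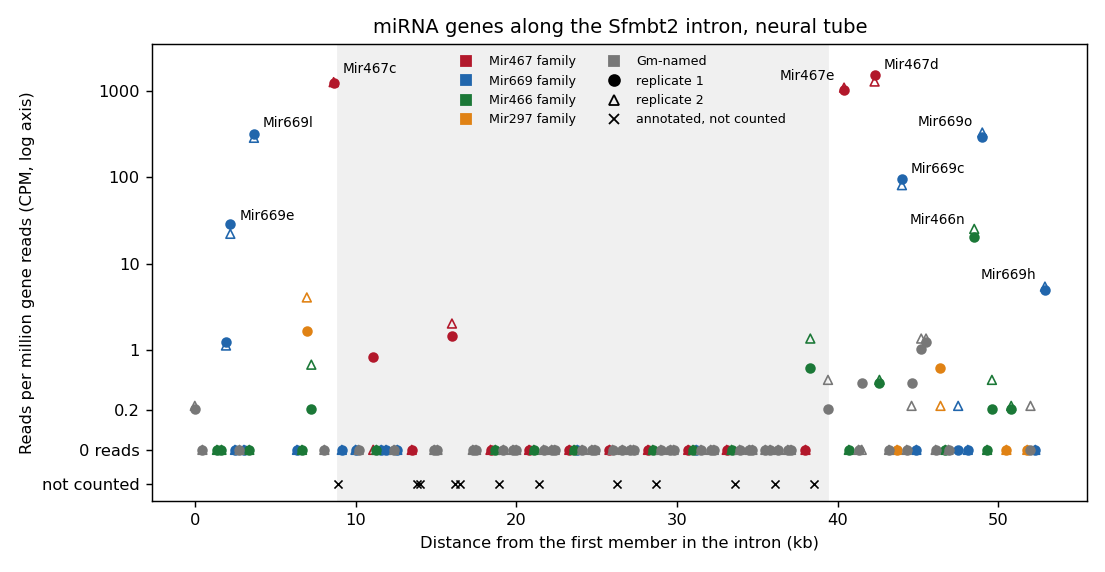
CPM (log axis, with genes at 0 reads and genes without a row in the counts drawn at separate heights below it) of each member against its distance in kb from the first member; filled circles are replicate 1, open triangles replicate 2, colours mark families, and the grey band is the stretch between Mir467c and Mir467e. All 9 detected members lie outside the grey band, which holds 15 and 17 reads assigned to 1 place.

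The middle stretch is part of a tandem repeat whose gene order runs on into both flanks. This stretch holds 12 genes of the Mir467 kind (the 10 Mir467a copies, Mir467b and Gm25022, which shares most of its hairpin windows with that family). They are spaced a median of 2.45 kb apart (2.41 to 2.47). The stretch has 6 members for each of them on average, and the number varies from unit to unit. In all 12 cases the next gene was of the Mir466 kind and the one after it of the Mir669 kind. The same order followed Mir467c, Mir467e and Mir467d, which lie in the flanks. Mir467c and Mir467a-1 start 8.64 and 11.1 kb from the first member, and Mir467a-10, Mir467e and Mir467d start 38.0, 40.4 and 42.3 kb from it. Of the 72 members in the middle stretch, 52 had no hairpin window of 20 bases to themselves. That is, every run of 20 bases in the hairpin stood on either strand of another annotated miRNA hairpin as well. In the first 17 members no gene and in the last 30 members 2 genes were of this kind. All 12 members without a row in the counts were.

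Sharing of sequence was far more common in the cluster than elsewhere. At least 1 window of 20 bases was shared with another miRNA gene by 105 of 107 counted members (98.1%) and by 847 of 1787 other counted genes (47.4%). The median share of windows found in no other miRNA gene was 25.3% in the members and 100% in the others. A whole hairpin identical to that of another gene was found for 47 of the 119 members, among them 9 of the 10 Mir467a copies. The 38 of these that were counted had 0 reads in both libraries. A read that lies wholly within such a hairpin maps to several places and is counted for none, so these zeros do not show that the miRNAs are absent.

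**Figure D5:**
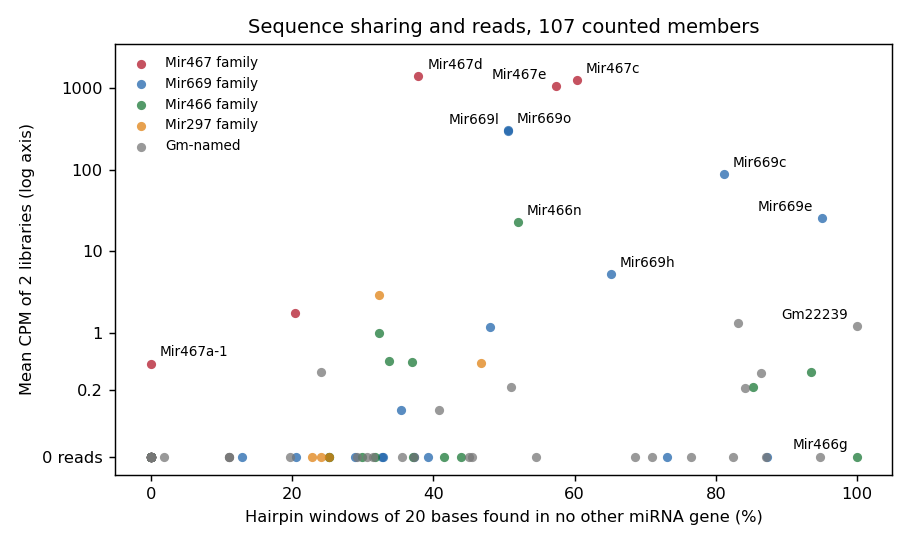
Mean CPM (log axis, genes at 0 reads drawn below it) of the 107 counted members against the share of their 20-base hairpin windows found in no other annotated miRNA gene (%), coloured by family. The 9 detected members lie between 37.9% and 95%, and genes without a read occur from 0% to 100%.

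Members with no window of their own had next to no reads. These 42 counted genes had 4 reads in replicate 1 and 0 in replicate 2, all from Mir467a-1. The 40 with a unique share above 0 and under 50% held 7354 and 5741 reads, of which Mir467d, the 1 detected gene among them (37.9% unique), had 7323 and 5693. The 25 with at least 50% held 14572 and 13772 reads and 8 of the detected genes, where 18.8% of all counted genes were detected. Of these 25, 15 had a read in either library, a larger share than the 37.3% of all counted genes. Among the 10 without one were Mir466g, whose hairpin shares no window with another gene, Mir669b and Mir669i.

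Genes that sit side by side in the intron differed widely. Mir466p starts 198 bases after Mir467e and had 0 reads where Mir467e had 4938 and 4833, so that Mir467e was at least 1646-fold higher in replicate 1 and at least 1611-fold higher in replicate 2 (floor of 3 counts per library). These bounds hold for uniquely assigned reads alone. Mir466 lies 203 bases after Mir467d and had 2 reads in each library against 7323 and 5693. The share of unique windows was 37.0% in Mir466 and 37.9% in Mir467d, but 37.1% in Mir466p against 57.4% in Mir467e. Mir466g lies 199 bases after Mir669o and had 0 reads, which puts Mir669o at least 464-fold and 487-fold higher in the libraries. Mir466f-2 lies 202 bases before Mir669l and had 0 reads, against 1508 and 1269 of Mir669l, with unique shares of 25.3% and 50.6%.

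Outside Sfmbt2 the same families gave 2 reads in replicate 1 and 1 in the other library. None of the 10 counted genes on other chromosomes was detected, and with 18.8% of all genes detected so small a number shows nothing particular to them. Mir466q (chr3:28419943-28420018) had 2 reads in replicate 1 and 1 in replicate 2, and Mir466k, Mir466j, Mir466i, Mir466f-4, Mir467f, Mir467g, Mir467h, Mir669n and Mir297-1 had 0. Among them Mir669n shares no window with any other miRNA gene. Mature miR-467h comes from a hairpin with 38.2% unique windows that shares a window with 3 members.

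The libraries gave similar levels for the members. Replicate 1 was compared with replicate 2 by a two-sided exact binomial test on TMM-scaled library sizes, adjusted by Benjamini-Hochberg over all 371 detected genes. It compares these 2 libraries and covers counting error only. None of the 9 detected members was past the test and at least 2-fold apart, against 2.70% of all detected genes. Without a fold minimum 3 of 9 passed, against 53.1% of all. An unadjusted p under the threshold of 0.05 was found for 4, and the share of all genes by that rule is not given. Mir467d was higher in replicate 1 (1.15-fold, adjusted p = 3.06e-15), where 26.1% of all detected genes passed in that direction. Mir467e (log2 ratio -0.13, adjusted p = 4.09e-05) and Mir669o (-0.23, adjusted p = 6.72e-05) were lower there, as 27.0% of all were. Without a fold minimum the balance moved with the setting. It went from 1 member higher and 2 lower in replicate 1 to 2 and 2 with library totals. With size factors by the median of ratios it was 1 and 3. Among the 6 members tested at a minimum of 100 reads per library it was 3 and 2. The shares of all genes under these alternatives are not given. The common coefficient of variation of the libraries was 16.4%, which gives an SD of 0.33 for a log2 ratio, and 7 of the 9 members lay within it, as did 67.7% of all detected genes. The median absolute log2 ratio was 0.18 in the members and 0.24 in all detected genes.

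A list of other imprinted miRNA genes summed to more reads in the same libraries. All 13 matched genes, from the Mest, Gnas, H19, Igf2 and Dlk1-Dio3 loci, were detected, against 18.8% of all counted genes. They had a sum of 67739 and 67306 CPM against 4566 and 4412 of the Sfmbt2 cluster. Neither sum holds reads that map to several places, and 98.1% of the counted members share a hairpin window with another miRNA gene. How many such reads came from either set was not tested. Mir335, in Mest, alone had 30858 and 33109 CPM, and Mir675, from H19, had 28.3 and 35.7. The list of pluripotent and extraembryonic miRNA genes, the cell types for which the Sfmbt2 array is best known, summed to 736 and 676 CPM. Of its 11 matched genes 6 were detected, against 18.8% of all counted genes. Most of the sum came from Mir302a (248 CPM on average), Mir302d (218), Mir302b (189) and Mir302c (28.9), while Mir290a and Mir367 were at 0. Mir292a had no match by that symbol, and a gene named Mir292, with 21 and 25 reads, is not in the sum. The part of these cell types in the reads of the cluster was not tested.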

How the data were processed

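The authors deposited, for each library, whole-number read counts per miRNA gene in 3 columns (both strands and each strand alone), made on mm10 with annotation M4, per the descriptions deposited with the files; the sources used here name no aligner, counter or trimming tool. The third column of the file was used, where the gene identifier is the first. It is the second of the 3 count columns, and its strand is the gene's own. The 4 rows that name no gene were left out. Reads mapping to several places were 27.0% and 28.6% of the files.

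Symbols, coordinates and hairpins came from GENCODE M21 (1894 of 1973 identifiers matched without version). Families were assigned by symbol. Windows of 20 bases were compared with both strands of all M21 miRNA hairpins; the genome was not searched. TMM sizes and the coefficient of variation came from edgeR 4.0.16 (R 4.3.3). With a single group no quasi-likelihood test applies, so the libraries were compared by an exact binomial test (Python 3.11.15, numpy 2.4.6, pandas 2.3.3, scipy 1.17.1, matplotlib 3.10.9). The test was run on simulated counts that held counting error alone, as the test assumes. That run therefore does not show how the test behaves with the further spread between these libraries.

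Genes named are all detected members, the highest of each family inside, up to 3 of each family outside, and the first and last member; others, such as neighbours, were chosen after their values were seen. Members and lists were chosen with earlier results of these data known. The mature-sequence alternative was not run.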

Additional observations from a re-analysis of the deposited data

How the results depend on the processing

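The share of gene reads held by the cluster (0.449%) was 0.270% with multiply mapped reads added to the denominator and 0.308% without Mir467d. It was 0.442% with both-strand counts and 0.441% to 0.457% with either library left out. The number of detected members (9) was 27 with at least 1 read in either library, 6 with at least 100 reads in both, and 9 to 10 with either library left out. With either library left out, the Mir467 share of the cluster's reads was 82.7% to 83.3% and the Mir669 share 16.1% to 16.5%, which are the values of the single libraries and no test of stability. Both-strand counts could not change these shares, since no member had a read on the opposite strand. Of the 12 genes with a read among the 19 for which alternatives were run, none moved by more than its SD with TMM-scaled sizes, and 10 did with multiply mapped reads in the denominator, which lowers all genes of a library by 1 factor. The number of members past the exact binomial test and at least 2-fold apart between libraries was 0 under all 4 alternatives run. Without a fold minimum 3 members passed in the main setting, against 53.1% of all detected genes. With library totals and with size factors by the median of ratios 4 of 9 passed. With at least 1 read in either library 4 of 27 passed, and with at least 100 reads in both 5 of 6. The shares of all genes under these alternatives are not given, so the counts show nothing particular to the members. The number of members sharing hairpin sequence was 105 with windows of 18 or 20 bases. No paired analysis was possible because there is a single group. Sharing by mature sequence was not run. At this depth a gene with 0 reads could hold up to 0.625 and 0.678 CPM, and reads mapping to several places limit what any count of a copied gene shows.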

Other observations

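The 48 Gm-named members, provisional gene models from the annotation, had 17 reads in each library over 7 genes. None of these members was detected, against 18.8% of all counted genes. By shared hairpin windows 43 of them were nearest to the Mir669 family, 2 to Mir466 and 1 to Mir467, and 2 shared none with a family member. Gm22925 (chr2:10510791-10510892) had 6 reads in each library, the highest count among them. Gm22239 (chr2:10510461-10510563), whose hairpin shares no window with any other annotated miRNA gene, had 5 and 6 reads. In all, 22 of the 48 had no window of their own.

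The 79 counted identifiers that have no M21 entry could not be placed inside or outside Sfmbt2. They had 2 reads in replicate 1 and 6 in replicate 2 in all.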
